A study of Mus musculus with 2 samples.

Results

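The receptors CD150 and CD48 were followed in haematopoietic stem and progenitor cells as RNA, from the genes Slamf1 and Cd48, and as protein, from the CD150 and CD48 antibody tags. The 2 genes were taken by name from the 32285 genes of the count matrices, and the 2 tags from the 126 surface tags measured in the same cells (CITE-seq). The cells were Lin- Sca1+ c-Kit+ (LSK) bone marrow cells, sorted from mice given the iron chelator deferoxamine or the vehicle HBSS. Doses were daily for 7 days at 50 mg/kg deferoxamine, the courses came round every 4 weeks, and they were continued for 13 months from an age of about 6 months. Each condition was represented by 1 pool, identified by its hashtag, and the pools went through 1 droplet loading. The sources used here do not give the strain, the sex or the number of mice in each pool. With no replicate pool, no difference between the conditions was tested, and the 95% intervals reflect counting error alone.

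Slamf1 (ENSMUSG00000015316) lies on mouse chromosome 1 at 171767131 to 171801184, and Cd48 (ENSMUSG00000015355) at 171681245 to 171705258 of the same chromosome (RefSeq annotation of GRCm38.p6). The genes are 61872 bases apart in a cluster that also holds Cd244a, Ly9, Slamf7, Cd84 and Slamf6. CD150 is a receptor that binds CD150 on other cells and signals through small SH2 adaptor proteins. CD48 is held in the membrane by a lipid anchor, has no signalling domain of its own, and binds CD244 and, in mice, CD2. In mouse bone marrow the pair is used to separate LSK cells: CD150+ CD48- cells are enriched in long-term stem cells, CD150+ CD48+ cells in progenitors leaning towards megakaryocytes and red cells, and CD150- CD48+ cells in myeloid and lymphoid multipotent progenitors. Stem cells with much CD150 are known to accumulate in old mice and to favour platelet and myeloid output.

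After removal of barcodes with under 500 genes or at least 10% mitochondrial UMIs, 3998 chelator and 3969 control cells remained. Their median depth was 14455.5 gene UMIs (unique molecules) in chelator and 13705 in control cells, and 3448.5 and 3041 surface-tag UMIs. Of the genes of the sort markers, Kit, which encodes c-Kit, had a UMI in 92.7% of chelator and 92.9% of control cells, and Ly6a, which encodes Sca-1, in 65.8% and 64.0%. Both pools held cells of both sexes, with Xist, which the inactive X chromosome makes, in 897 chelator and 1417 control cells (Xist cells) and Y-linked transcripts in 2542 and 1952 (Y-linked cells). Xist cells were 26.1% of the sexed chelator and 42.1% of the sexed control cells, so values within each sex are given below where they matter. Marker lists of mature cells summed to 34.8 CPM (UMIs per 1000000 gene UMIs) in chelator and 37.0 CPM in control cells for B cells (4 genes), 211 and 219 CPM for T, NK or innate lymphoid cells (8 genes), and 47.0 and 300 CPM for red cells (4 genes). The lists of neutrophils, monocytes or macrophages (7 genes) summed to 211 CPM in chelator and 205 in control cells, of mast cells or basophils (5 genes) to 35.3 and 71.6, and of endothelial or stromal cells (6 genes) to 48.6 and 48.9. The red cell and mast cell lists differed most between the pools; the part of these lists in the results was not tested. No doublet caller was run. Both Xist and Y-linked transcripts, at least 2 UMIs of each, were found in 52 chelator and 35 control cells.

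The tags separated LSK cells with much CD150 from cells with much CD48. Few cells had much of both, and a further class had little of either. CD150 tag counts spanned a wide range, with a median of 15 and a 99th percentile of 469 UMIs in chelator cells, and 13 and 483 in control cells. CD48 tag counts were lower, with a median of 8 and an upper quartile of 24 UMIs in chelator cells, and 7 and 21 in control cells. For comparison, the 99th percentile of the most abundant isotype control tag was 10 UMIs over all cells. Each tag was converted to a centred log ratio, log2(1 + UMIs) minus the mean over the surface tags of the cell, and a cell was called positive above the crossing point of a mixture of 2 normal curves fitted to both pools. The CD150 threshold was 2.25, between component means of 0.67 and 4.03, and the CD48 threshold 0.77, between -0.91 and 2.02. Within 0.25 of the CD150 threshold lay 2.85% of chelator and 4.28% of control cells, and within 0.25 of the CD48 threshold 6.08% and 6.83%.

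CD150-positive cells made up 38.3% of chelator and 35.5% of control cells, and CD48-positive cells 43.1% and 43.7%. Cells negative for both, the CD150- CD48- class, were 22.0% (20.7 to 23.3) of chelator and 24.4% (23.0 to 25.7) of control cells. The CD150+ CD48+ class held 3.43% (2.88 to 4.04) of chelator and 3.53% (2.98 to 4.15) of control cells. Had the calls been independent of each other, that class would have held 16.5% of chelator and 15.5% of control cells. Spearman's rho between the tags was -0.66 over 3998 chelator cells and -0.62 over 3969 control cells, cells that share their loading, antibody stain and depth, so it is a description. The CD150+ CD48- class had a median of 172 CD150 UMIs and 3 CD48 UMIs in chelator cells, and 162 and 2 in control cells. The CD150- CD48+ class had a median of 8 CD150 UMIs and 28 CD48 UMIs in chelator cells, and 8 and 24 in control cells. Cells of the CD150+ CD48+ class carried less of each protein than the cells positive for it alone, with medians of 60 CD150 and 19 CD48 UMIs in chelator cells and 57.5 and 19 in control cells.

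**Figure D1:**
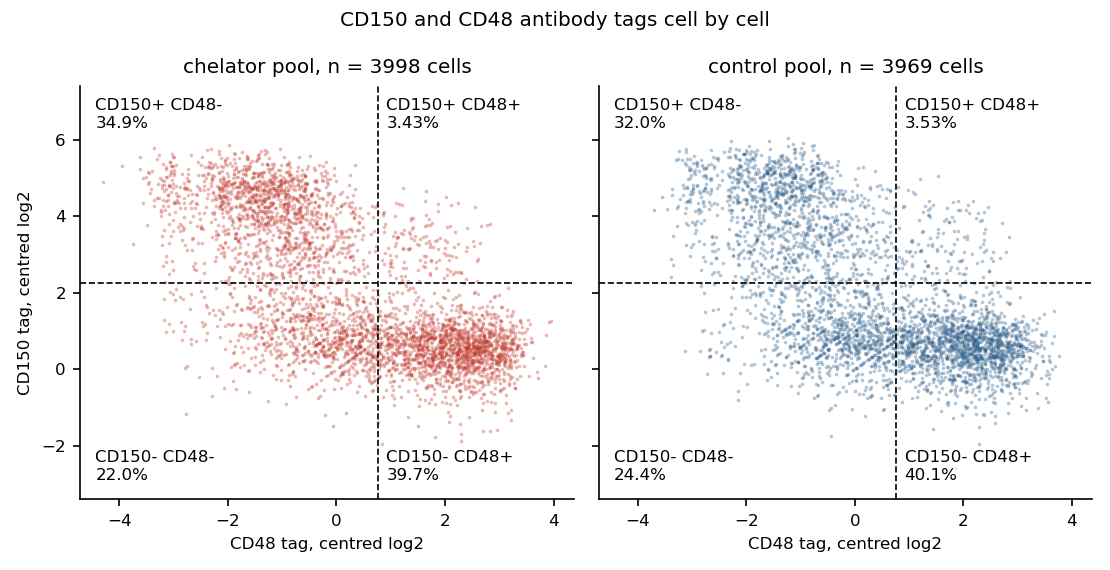
Each point is a cell, placed by its centred log2 CD48 tag (x axis) and CD150 tag (y axis), with 3998 chelator cells on the left and 3969 control cells on the right, and the dashed lines are the thresholds. In both pools the cells lie along an L with dense ends, and the upper right class holds 3.43% of chelator and 3.53% of control cells.

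RNA and protein of each receptor went together cell by cell. In chelator cells with 0 Slamf1 UMIs the median CD150 tag count was 11, in cells with 1 UMI it was 176, and in cells with 3 to 4 UMIs it was 282. In control cells these medians were 10, 142.5 and 291.5. Of cells with at least 5 Slamf1 UMIs, 21 of 21 chelator and 22 of 22 control cells were CD150-positive. For CD48 the tag median was 4 at 0 Cd48 UMIs, 19 at 1 UMI and 43.5 at 5 or more UMIs in chelator cells, and 3, 16 and 38 in control cells. The step from 0 to 1 UMI was thus steep for both receptors, and both tag medians went on increasing across the UMI bins. At 5 or more Slamf1 UMIs the CD150 median was 283 in chelator and 312 in control cells. Cells with more Cd48 UMIs were also deeper, with a median of 26603.5 gene UMIs in chelator cells with 5 or more Cd48 UMIs and 12613 in those with 0, so shares at equal depth are given next.

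**Figure D2:**
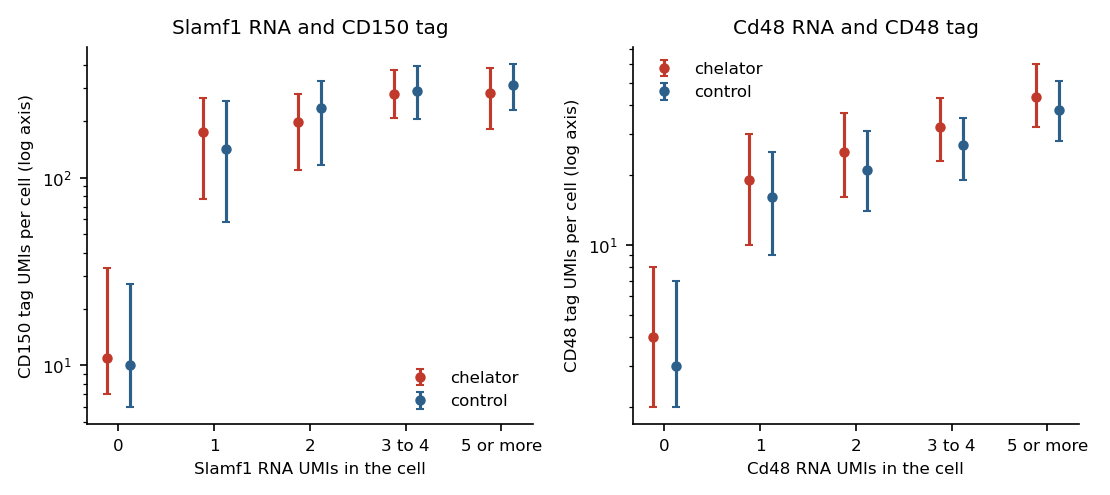
Median (point) and quartiles (bars) of tag UMIs per cell on a log axis, by the number of RNA UMIs of the gene in the cell, for Slamf1 and CD150 (left) and Cd48 and CD48 (right), with chelator cells left of control cells in each bin. The largest step lies between 0 and 1 UMI, with CD150 medians of 11 and 176 in chelator and 10 and 142.5 in control cells.

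Read from the tag side, Slamf1 had a UMI in 47.3% of CD150-positive chelator cells (median depth 13487 gene UMIs) and in 2.43% of CD150-negative ones (15558.5 gene UMIs). In control cells the shares were 45.5% (13037 gene UMIs) and 2.54% (14195.5). Slamf1 RNA, as UMIs scaled to the gene UMIs of the class, was 34.3-fold (26.9 to 44.5) higher in CD150-positive than in CD150-negative chelator cells, and 30.0-fold (23.8 to 38.5) higher in control cells. When cells were thinned to 5000 gene UMIs, with 138 chelator and 159 control cells too shallow for it, the shares with a Slamf1 UMI were 23.3% and 0.589% in chelator cells and 22.3% and 0.818% in control cells. Slamf1 UMIs were thus missing from many CD150-positive cells at this depth and were rare in CD150-negative cells.

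Cd48 RNA had a UMI in 76.3% of CD48-positive chelator cells (median 18742.5 gene UMIs) and 5.94% of CD48-negative ones (12791.5). In control cells the shares were 75.6% (17394) and 6.57% (12189). After thinning they were 43.0% and 2.70% in chelator cells and 42.7% and 2.91% in control cells. Cd48 RNA on the same scale was 20.2-fold (17.6 to 23.3) higher in CD48-positive than in CD48-negative chelator cells, and 18.8-fold (16.3 to 21.7) higher in control cells. Across CD150 tag deciles, taken over both pools, Slamf1 RNA was under 1 CPM in each of the 4 lowest deciles of either pool and reached 97.9 CPM in the highest decile of chelator cells and 102 in that of control cells.

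Over all cells, Spearman's rho of RNA with its own tag was 0.55 in chelator and 0.54 in control cells for Slamf1 with CD150, and 0.73 and 0.72 for Cd48 with CD48. Among 37 tags matched to their genes, Cd48 with CD48 ranked first and Slamf1 with CD150 ranked 5th in both pools. The relation was also present within the tag-positive cells alone, at 0.37 in chelator and 0.40 in control cells for Slamf1, and 0.44 and 0.41 for Cd48. Within tag-negative cells it was 0.15 in chelator and 0.16 in control cells for Slamf1, and 0.26 and 0.27 for Cd48. These are descriptions over cells of 1 loading, with no p.

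The genes and tags that ran most alongside each receptor formed opposite sets. With the CD150 tag, the highest rho of 9883 genes belonged to Apoe (0.73 in chelator, 0.70 in control cells), which encodes the lipid carrier apolipoprotein E, then Cavin2, Pdzk1ip1, Nupr1, Tgm2, Trim47, Sult1a1 and Gda. Slamf1 itself ranked 16th in chelator and 15th in control cells. At the other end stood H2afy (-0.70 in chelator, -0.67 in control cells), which encodes the histone variant macroH2A, then Cd34, Tmsb10, the cytokine receptor gene Flt3 (-0.63 and -0.63), Cd52, Plac8, Ramp1 and Tespa1. The surface tags closest to CD150 were CD55, a complement regulator, at 0.77 in chelator and 0.75 in control cells, and the integrin chains CD41 (0.76 and 0.72), CD61, CD49f and CD51. The lowest included CD371, the hyaluronan receptor CD44, CD48 itself and CD86.

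With the CD48 tag, the highest rho belonged to Plac8 (0.79 in chelator, 0.77 in control cells), with Cd48, H2afy, Tmsb10, BC035044, Cd52 and Tespa1 also among the highest. The lowest included Pdzk1ip1 (-0.72 in chelator, -0.73 in control cells), Trim47 (-0.65 and -0.64), Tgm2, Gng11, Ifitm3, Hacd4 and Nupr1. Among tags, CD371 (0.79 in chelator, 0.72 in control cells), CD11a, CD44 and CD135, the Flt3 protein, were among the closest to CD48. CD61, CD55, CD49f, CD51 and CD150 were the farthest. Of the 8 lowest genes for CD48, Pdzk1ip1, Trim47, Tgm2 and Nupr1 were also among the 8 highest for CD150.

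The remaining SLAM genes differed in which tag class held them. Cd84, a self-binding receptor, was at 70.1 CPM in CD150+ CD48- chelator and 74.5 in such control cells, against 40.1 and 39.8 in CD150- CD48+ cells. Cd244a, which encodes the receptor for CD48, was at 31.4 CPM in CD150- CD48+ chelator and 30.6 in such control cells, against 1.08 and 0.951 in CD150+ CD48- cells. Ly9 was at 21.4 CPM in CD150- CD48+ chelator and 21.0 in such control cells, against 5.92 and 5.93 in CD150+ CD48- cells. Cd48 and the gene of its receptor were therefore highest in the same tag class, and Cd84 was highest in the class with most Slamf1. With 58.7 CPM in CD150+ CD48+ chelator and 53.8 in such control cells, Cd84 was more evenly spread over the classes than Slamf1. Cd2, the other mouse partner of CD48, had 14 chelator and 23 control UMIs in all.

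**Figure D3:**
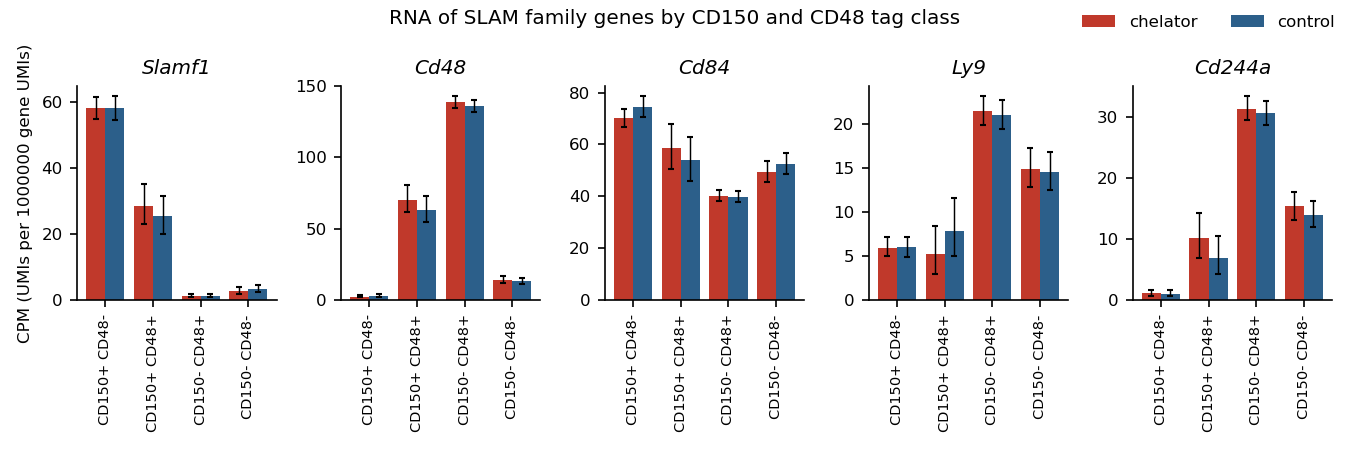
RNA in CPM (y axis, a scale per gene) of SLAM family genes in the CD150 and CD48 tag classes, with chelator bars left of control bars and 95% Poisson intervals. Slamf1 and Cd84 are highest in CD150+ CD48- cells, at 58.2 and 70.1 in chelator and 58.1 and 74.5 in control cells, and Cd48, Ly9 and Cd244a in CD150- CD48+ cells.

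Slamf7, Slamf6, Slamf8 and Slamf9 were scarce, at 2.38, 0.541, 1.55 and 0.271 CPM in the chelator and 3.73, 0.633, 1.72 and 0.459 CPM in the control pool. The Slamf7 UMIs came from 34 chelator and 44 control cells. The adaptor genes through which CD150 signals in lymphocytes were close to absent at this depth: Sh2d1a (SAP) had 14 chelator and 8 control UMIs, Sh2d1b1 (EAT-2) 30 and 23, and Sh2d1b2 1 and 1. Enzymes that SLAM receptors can recruit were present, with 41.5 CPM in chelator and 43.1 in control cells for the kinase gene Fyn, 110 and 112 for the lipid phosphatase gene Inpp5d, 138 and 137 for Ptpn6, and 57.2 and 56.8 for Ptpn11.

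Marker genes of stem cells and lineages were spread unevenly over the tag classes. In CD150+ CD48- cells the stem cell genes Procr (156 CPM in chelator, 179 in control cells), Vwf (100 and 109) and Clu (161 and 141) were highest, and their summed list of 10 stem cell markers reached 1717 CPM in chelator and 1759 CPM in control cells. The same list summed to 390 CPM in CD150- CD48+ chelator and 371 in such control cells. CD150- CD48+ cells held the myeloid granule gene Mpo at 905 CPM in chelator and 847 in control cells, Dntt, which encodes the lymphoid DNA polymerase TdT, at 381 and 344, and Flt3 at 232 and 238. Another granule gene, Prtn3, did not follow Mpo, at 677 CPM in CD150+ CD48- chelator and 644 in such control cells, against 602 and 580 in CD150- CD48+ cells. CD150+ CD48+ cells had the most RNA of the erythroid genes Car1 (463 CPM in chelator, 581 in control cells) and Klf1 (58.0 and 68.1), and of the platelet genes Pf4 (287 and 399) and Itga2b (151 and 168). That class was small, with 137 chelator and 140 control cells, and the deepest, with medians of 21799 and 20125.5 gene UMIs. Its Car1 UMIs came from 21 chelator and 30 control cells, and its Pf4 UMIs from 66 and 67. A Mpo UMI was found in 29.2% and 32.1% of it, and the part of doublets in it was not tested. CD150- CD48- cells had the highest level of the stem cell factor gene Hlf, 483 CPM in chelator and 497 in control cells, but Clu at 1.44 and 2.05. The CD135 tag, not used for the classes, was above its threshold in 6.09% of CD150+ CD48- chelator and 8.51% of such control cells, in 61.5% and 68.5% of CD150- CD48+ cells, and in 36.1% and 43.3% of CD150- CD48- cells. That threshold was a centred log ratio of -0.63, from a mixture of the same kind. Median CD135 counts were low in every class, 4 UMIs in CD150- CD48+ and 2 in CD150+ CD48- cells of either pool. Over all cells the scaled CD135 tag had a log2 ratio, chelator over control, of -0.42.

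Within the CD150+ CD48- class, CD150 varied several-fold, and the genes changed along it. The class was divided into tertiles of the CD150 tag, with medians of 71, 172 and 307 UMIs in chelator cells and 64, 161 and 302 in control cells. Slamf1 RNA followed, at 28.0, 53.9 and 95.1 CPM in chelator cells and 22.9, 53.9 and 97.6 in control cells. Clu, which encodes clusterin, was at 51.8, 174 and 256 CPM in chelator cells and 46.3, 131 and 246 in control cells. Vwf, the von Willebrand factor gene, was at 41.0, 112 and 147 CPM in chelator cells and 47.8, 102 and 178 in control cells. Pf4 ran the other way, at 321, 284 and 58.1 CPM in chelator cells and 460, 193 and 26.2 in control cells. CD150+ CD48- cells with the most CD150 thus had the most Clu and Vwf RNA and the least RNA of the platelet factor.

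Along Pf4, Mpo and Dntt the shares of CD150-positive and CD48-positive cells changed in opposite directions, with CD150 the more frequent in cells rich in Pf4 and CD48 in cells rich in Mpo or Dntt. A cell was counted as positive for a lineage gene from 3 UMIs and as negative at 0. Pf4, which encodes a platelet chemokine, was positive in 233 chelator and 206 control cells, Mpo in 862 and 849, and Dntt in 582 and 546. Mpo and Dntt overlapped, with 308 chelator and 274 control cells positive for both, which is 35.7% of the Mpo-positive and 52.9% of the Dntt-positive chelator cells, and 32.3% and 50.2% in control cells. Pf4 shared 3 chelator and 7 control cells with Mpo, and 1 and 3 with Dntt.

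The CD150-positive share was 34.5% at 0 Pf4 UMIs, 46.8% at 1 to 2, 61.0% at 3 to 9 and 87.3% (78.0 to 93.8) at 10 or more in chelator cells. In control cells it was 32.7%, 40.1%, 54.2% and 89.5% (81.1 to 95.1). The CD48-positive share was 46.9%, 30.3%, 22.7% and 20.3% in the same Pf4 bins of chelator cells. In control cells it was 46.4%, 31.5%, 27.5% and 27.9%, with most of the change at the first step. The CD150+ CD48+ share went up along Pf4, from 2.21% at 0 to 16.5% at 10 or more UMIs in chelator cells. In control cells it went from 2.22% to 24.4%. The cells richest in Pf4 were thus nearly all CD150-positive, but at a moderate level: with 10 or more Pf4 UMIs the CD150 tag had a median of 97 UMIs (quartiles 48.5 and 191.5) in chelator cells and 90 (55.5 and 138) in control cells. Summed over cells, the CD150 tag scaled to all surface tags had a log2 ratio, Pf4-positive over Pf4-negative, of 0.0049 (-0.015 to 0.024) in chelator and -0.12 (-0.14 to -0.09) in control cells, where 3.12% of 96 and 2.13% of 94 tags were higher past 1.5-fold. In control cells the share of positive cells and the scaled sum thus had opposite orders, and in chelator cells the interval of the scaled sum included 0. Unscaled, the median CD150 count was 13 UMIs at 0 and 97 at 10 or more Pf4 UMIs in chelator cells, and 12 and 90 in control cells. Surface-tag counts also differed between these bins, with medians of 3323 and 4758 in chelator and 2950 and 3936.5 in control cells.

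RNA along Pf4 went the way of the shares. Slamf1 was 1.69-fold (1.42 to 2.01) in Pf4-positive over Pf4-negative chelator cells, where 3.21% of 8075 genes were higher past 1.5-fold, and 1.39-fold (1.14 to 1.69) in control cells, where 3.76% of 7916 were. Cd48 RNA was 0.263-fold (0.214 to 0.320) in chelator cells, where 6.84% of genes were lower past 1.5-fold, and 0.286-fold (0.232 to 0.348) in control cells, where 7.45% were. The CD48 tag was 0.430-fold in chelator cells (10.4% of 96 tags lower past 1.5-fold) and 0.536-fold in control cells (7.45% of 94).

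Along Mpo the receptors exchanged places. The CD150-positive share was 54.3% at 0, 2.36% at 3 to 9 and 2.28% at 10 or more Mpo UMIs in chelator cells, and 49.7%, 3.69% and 3.61% in control cells. The CD48-positive share was 21.5%, 92.7% and 99.3% in the same bins of chelator cells, and 23.1%, 91.6% and 97.7% in control cells. Cells with 1 to 2 Mpo UMIs lay between these bins for both tags. Most cells with 3 or more Mpo UMIs were therefore above the CD48 threshold and below the CD150 threshold. Being below it does not show that CD150 was absent. At 10 or more Mpo UMIs the CD150 tag had a median of 9 UMIs (upper quartile 12) in chelator and 8 (11) in control cells. Slamf1 RNA was 0.0498-fold (0.0341 to 0.0704) in Mpo-positive over Mpo-negative chelator cells and 0.0425-fold (0.0271 to 0.0636) in control cells, where 9.25% and 8.32% of genes were lower past 1.5-fold. Cd48 RNA was 6.62-fold (6.15 to 7.14) in chelator and 6.21-fold (5.76 to 6.71) in control cells, where 6.58% and 6.3% of genes were higher past 1.5-fold. The CD48 tag was 5.61-fold in chelator and 4.69-fold in control cells (12.5% and 9.57% of tags higher past 1.5-fold), and the CD150 tag 0.172-fold and 0.186-fold (11.5% and 9.57% lower).

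Along Dntt the pattern was like that along Mpo, in cells that partly coincide. The CD150-positive share was 48.4% at 0 and 2.89% at 10 or more Dntt UMIs in chelator cells, and 44.3% and 2.79% in control cells. The CD48-positive share was 29.1% at 0 and 98.4% at 10 or more in chelator cells, and 30.8% and 97.9% in control cells. Cd48 RNA was 3.06-fold (2.87 to 3.26) in Dntt-positive over Dntt-negative chelator cells and 2.52-fold (2.36 to 2.69) in control cells, where 4.8% and 4.7% of genes were higher past 1.5-fold. Slamf1 RNA was 0.0849-fold (0.0566 to 0.122) in chelator and 0.0524-fold (0.0286 to 0.0883) in control cells, where 8.4% and 7.88% of genes were lower past 1.5-fold. The CD48 tag was 4.55-fold in chelator and 4.07-fold in control cells (17.7% and 16% of tags higher past 1.5-fold), and the CD150 tag 0.233-fold and 0.228-fold (9.38% and 10.6% lower). Cells positive for none of the 3 genes, 2633 chelator and 2651 control cells, were CD150-positive in 50.7% and 46.5% and CD48-positive in 22.6% and 23.8%.

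Along the erythroid gene Klf1, which encodes a transcription factor of red cell development, the shares did not oppose each other. The CD150-positive share was 37.2% at 0, 66.1% at 1 to 2, 81.8% (59.7 to 94.8) at 3 to 9 and 37.5% (15.2 to 64.6) at 10 or more Klf1 UMIs in chelator cells, and 34.3%, 64.9%, 70.5% (54.8 to 83.2) and 21.1% (6.05 to 45.6) in control cells. The CD48-positive share was 42.6%, 48.7%, 81.8% (59.7 to 94.8) and 68.8% (41.3 to 89.0) in the same bins of chelator cells, and 43.0%, 49.1%, 77.3% (62.2 to 88.5) and 63.2% (38.4 to 83.7) in control cells. Both shares were highest at 3 to 9 Klf1 UMIs in either pool, in bins of few cells: 22 chelator and 44 control cells there, and 16 and 19 at 10 or more.

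**Figure D4:**
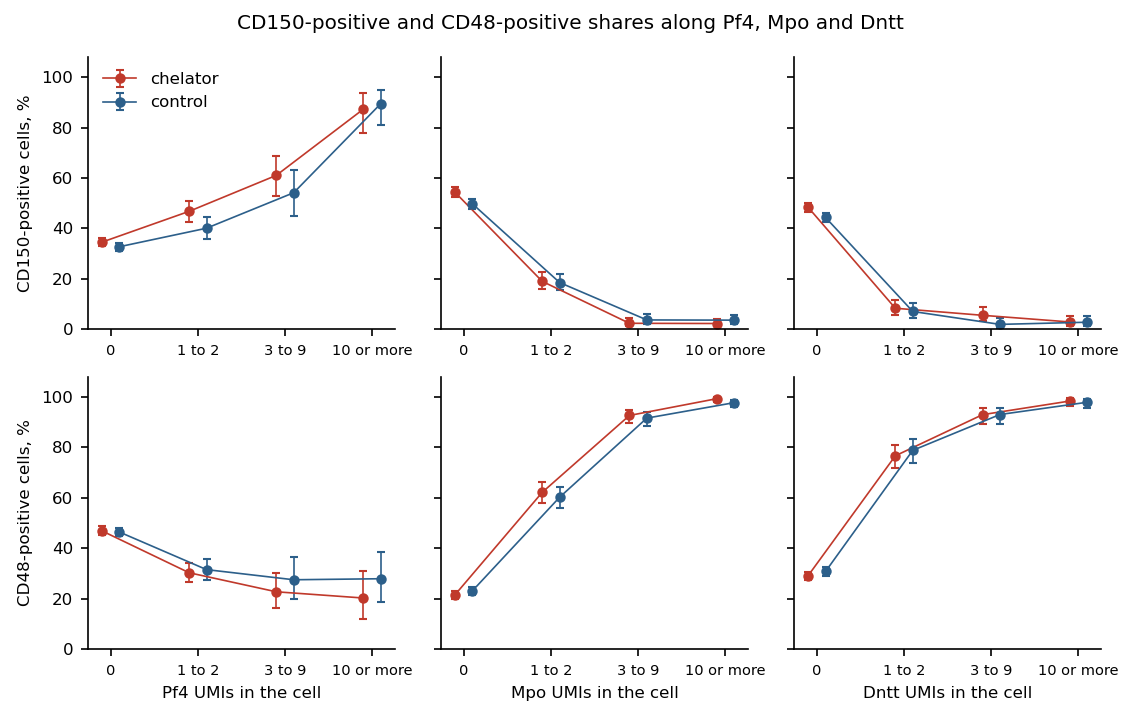
Share of CD150-positive (upper row) and CD48-positive cells (lower row) by the number of Pf4, Mpo or Dntt UMIs in the cell, with 95% Clopper-Pearson intervals, chelator points left of control points. CD150 reaches 87.3% of chelator and 89.5% of control cells in the highest Pf4 bin and 2.28% and 3.61% in the highest Mpo bin, where CD48 reaches 99.3% and 97.7%.

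Between the conditions the levels of both receptors were close. Slamf1 had 1346 UMIs, 20.2 CPM, in the chelator and 1191, 18.8 CPM, in the control pool, a log2 ratio of 0.10 (-0.0098 to 0.22). Cd48 had 4753 UMIs, 71.5 CPM, in the chelator and 4486, 70.9 CPM, in the control pool, a log2 ratio of 0.01 (-0.05 to 0.07). Neither gene was past a log2 ratio of 0.32 either way, as 0.945% of 9840 genes with at least 1000 UMIs were. In size, the Slamf1 ratio was above that of 85.2% of these genes and the Cd48 ratio above that of 15.6%. The CD150 tag had 308088 UMIs in the chelator and 275083 in the control pool, a log2 ratio, scaled to all surface tags, of -0.0095 (-0.017 to -0.0021), and the CD48 tag 63959 and 55140, a log2 ratio of 0.04 (0.02 to 0.06). Neither tag was past 0.32 either, as 8.57% of 105 tags were.

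CD150+ CD48- cells made up 34.9% of chelator and 32.0% of control cells, a difference of 2.92 points (0.830 to 5.01). CD150- CD48- cells made up 22.0% and 24.4%, a difference of -2.38 points (-4.25 to -0.507), while the intervals of the CD150- CD48+ class, -0.441 points (-2.61 to 1.73), and of the CD150+ CD48+ class, -0.101 points (-0.926 to 0.723), included 0. Within the CD150+ CD48- class, the middle CD150 tertile held 36.9% of chelator and 29.4% of control cells, which differ by 7.52 points (3.90 to 11.1), and the highest tertile 31.2% and 35.7%, which differ by -4.51 points (-8.15 to -0.876). The middle tertile was the larger one in chelator cells within both sexes, at 39.0% of chelator and 25.5% of control Xist cells and 36.5% and 29.9% of Y-linked cells. The highest tertile differed by -7.96 points (-15.2 to -0.609) in Xist cells and by -3.07 points (-7.94 to 1.77) in Y-linked cells, where the interval included 0. Unscaled, the median CD150 count of the whole class was 172 UMIs in chelator and 162 in control cells, at median surface-tag counts of 4724 and 4265. The tertile shares were not run under the alternatives of the processing. In CD150-positive cells Slamf1 RNA was at 54.3 CPM in chelator and 53.3 CPM in control cells, a log2 ratio of 0.03 (-0.09 to 0.15). The CD150 tag there, scaled to all surface tags, had a log2 ratio of -0.09 (-0.10 to -0.09). Unscaled, the order was the opposite, with a median CD150 tag count of 159 UMIs in these chelator and 144 in these control cells.

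The values within each sex were not alike. Among Xist cells, CD150+ CD48- cells were 323 of 897 in the chelator and 376 of 1417 in the control pool, or 9.47 points (5.53 to 13.4) more in the chelator pool. Among Y-linked cells the shares were 33.7% and 33.6%, which differ by 0.107 points (-2.72 to 2.92). The share of CD150- CD48- cells differed by 3.39 points (-0.0509 to 6.91) among Xist cells and by -5.92 points (-8.47 to -3.38) among Y-linked cells, so the lower share over all chelator cells was not seen in Xist cells. Slamf1 RNA had a log2 ratio of 0.48 (0.27 to 0.69) among Xist cells and -0.11 (-0.26 to 0.04) among Y-linked cells. Cd48 RNA went opposite ways, at -0.39 (-0.50 to -0.28) among Xist cells and 0.25 (0.17 to 0.33) among Y-linked cells. Within CD48-positive cells the same ratios were -0.09 (-0.20 to 0.02) and 0.12 (0.04 to 0.21). The share of Xist cells differs between the pools and the number of mice behind each sex is not known, so mouse, sex and treatment cannot be told apart here.

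**Figure D5:**
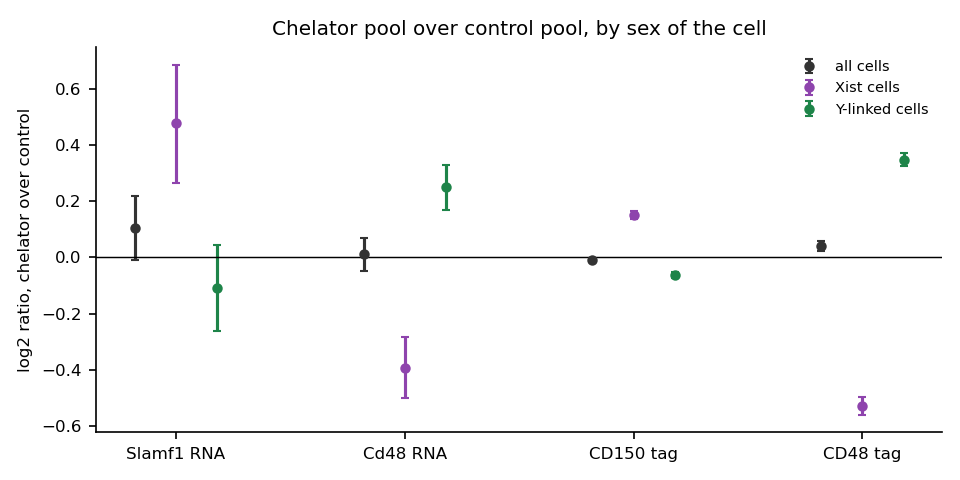
Log2 ratio of the chelator over the control pool for RNA scaled to gene UMIs and tags scaled to surface-tag UMIs, with 95% counting intervals, in all cells, Xist cells and Y-linked cells. Over all cells the ratios lie between -0.0095 and 0.10, while for Cd48 RNA they are -0.39 among Xist cells and 0.25 among Y-linked cells.

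Within the lineage classes the shares of receptor-positive cells differed little between conditions. CD150 was positive in 70.0% of Pf4-positive chelator and 68.9% of such control cells, in 2.32% and 3.65% of Mpo-positive cells, and in 4.12% and 2.38% of Dntt-positive cells. CD48 was positive in 21.9% and 27.7% of Pf4-positive chelator and control cells, in 96.1% and 94.8% of Mpo-positive cells, and in 95.9% and 95.6% of Dntt-positive cells. The intervals of all 6 differences included 0, the widest being that of CD150 in Pf4-positive cells, from -7.87 to 9.97 points. For CD48 in Mpo-positive and Dntt-positive cells, shares this high leave little room for a difference. At 10 or more Mpo UMIs the unscaled CD48 median was 41 UMIs in chelator and 33 in control cells. At 10 or more Dntt UMIs it was 39 and 32. Surface-tag medians there were 3180 and 2823, and 2496 and 2152. In all CD48-positive cells the scaled CD48 tag had a log2 ratio of 0.10 (0.08 to 0.12). Among Xist cells it was -0.20 and among Y-linked cells 0.25. In Dntt-positive Xist cells, CD150 differed by 4.85 points (0.520 to 11.3) and CD48 by -7.39 points (-15.5 to -0.886), from 104 chelator and 217 control cells.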

How the data were processed

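LSK cells of 1 chelator and 1 control pool were stained with TotalSeq-C antibodies and hashtags, per the labels' protocols, and yielded 2 libraries, RNA and antibody tag. The authors deposited 1 matrix per condition with raw UMI counts, not normalized, for genes and tags together, beside lists of barcodes and features. Cell Ranger 7.0.0, Seurat 4.3.0 and mm10 come from the submitters' processing notes; the matrix header names version 7.0.1. The sources used here do not give the annotation release, barcode filters or hashtag assignment. Each matrix was matched to its condition by name, and the hashtag paired with that condition in the labels was the stronger in 4037 of 4037 chelator and 4025 of 4026 control barcodes. No barcode occurred in both. About 20000 cells were sorted per sample.

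A barcode was kept from 500 genes on if mitochondrial UMIs were under 10%, leaving out 39 chelator and 57 control barcodes. The matrices hold 66573361 chelator and 63370466 control gene UMIs. Counts were summed over a pool or class and divided by total gene UMIs, or by total surface-tag UMIs without hashtags, of which CD117 and CD49f make up 54.1% in chelator and 55.2% in control cells. Sums carry exact Poisson intervals, shares Clopper-Pearson intervals, ratios exact conditional binomial intervals, and differences of shares intervals built from both single intervals. No p-value was computed. Xist cells had at least 2 Xist UMIs and no Y-linked UMI, Y-linked cells at least 1 UMI over 4 genes and no Xist; 559 chelator and 600 control cells were in neither group. Scripts used Python 3.11.15, numpy 2.4.6, scipy 1.17.1, pandas 2.3.3 and scikit-learn 1.9.0, and were tested on simulated counts.

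Named genes were Slamf1, Cd48, Pf4, Mpo, Dntt, the SLAM family with its adaptors and partners, the marker lists, and the 8 highest and 8 lowest genes (5 and 5 tags) by Spearman's rho with each tag, ranked by the value nearer 0 of the pools, among genes with a UMI in 10% of cells; some items that this rule names are not reported here. Members, lists and gates were chosen with earlier results of these data known. In all, 16 alternatives were run.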

Additional observations from a re-analysis of the deposited data

Results flagged for a closer look

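In 4 results the difference between the pools had opposite directions in Xist cells and Y-linked cells with intervals that left out 0 in both; whether the sexes differ was not tested, since each sex has 1 pool per condition and the cells are not replicates. Cd48 RNA had a log2 ratio, chelator over control, of -0.39 among Xist cells and 0.25 among Y-linked cells. The CD48 tag went the same way, at -0.53 among Xist cells and 0.35 among Y-linked cells. The CD150 tag was opposite to it, at 0.15 among Xist cells and -0.06 among Y-linked cells. The CD150- CD48+ class was 35.8% of chelator and 48.8% of control Xist cells, which differ by -13.0 points, and 43.1% of chelator and 37.6% of control Y-linked cells, which differ by 5.47 points.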

How the results depend on the processing

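Of 144 values under 16 alternatives, 93 lay within the interval of the value reported and 51 outside it, and 9 had the opposite sign, 4 of these where the reported interval itself included 0; for all that changed, the cause was not tested. Among Xist cells the Slamf1 RNA log2 ratio was 0.48, Cd48 RNA -0.39 (sign changed), the CD150 tag 0.15 (sign changed), the CD48 tag -0.53 (sign changed) and the CD150+ CD48- difference 9.47 points; among Y-linked cells these were -0.11 (sign changed), 0.25, -0.0618, 0.35 and 0.107. With the sexes weighted equally Cd48 RNA, -0.0716, the CD150 tag, 0.0448, and the CD48 tag, -0.0903, changed sign, as did Cd48 RNA, -0.00117, without the 2% of cells with the most gene UMIs. The CD150 tag was -0.0172 without cells of both sex markers, -0.00025 scaled to the median of tag ratios, and 0.15, of changed sign, as UMIs per cell without scaling, where the CD48 tag was 0.20.

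The difference in Slamf1 UMI share between CD150-positive and CD150-negative cells (43.9 points) was 29.9 with an isotype threshold of 10 tag UMIs and 22.1 at 5000 UMIs per cell. That of Cd48 (69.7) was 71.4 with the stricter cell filter, 71.3 among Xist cells, 67.0 with the isotype threshold and 40.0 at 5000 UMIs.

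The CD150 difference along Pf4 (35.8 points) was 48.7 among Xist cells, 42.5 at 5000 UMIs, 17.5 with Pf4-positive from 1 UMI and 54.8 from 10 UMIs. Along Mpo (-49.0) it was -54.0 among Xist cells, -51.4 with the sexes weighted equally, -40.9 with the isotype threshold, -46.5 with a mixture on log2 tag UMIs per 10000, -45.3 at 5000 UMIs and -42.9 from 1 UMI. Along Dntt (-43.1) it was -45.8 with the isotype threshold and -40.6 with that mixture.

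The CD48 difference along Pf4 (-21.9) was -27.6 among Y-linked cells, -13.9 with the isotype threshold and -26.5 at 5000 UMIs. Along Mpo (73.1) it was 69.4 among Xist cells, 71.3 with the isotype threshold, 69.0 at 5000 UMIs, 59.7 from 1 UMI and 76.2 from 10 UMIs. Along Dntt (65.8) it was 55.6 among Xist cells, 69.3 among Y-linked cells, 62.4 with the sexes weighted equally, 63.8 with the isotype threshold, 67.9 with the mixture, 63.8 at 5000 UMIs, 59.0 from 1 UMI and 68.2 from 10 UMIs. No lineage difference changed sign under any of these. With 1 pool per condition no replicate could be left out. No paired analysis was possible because each condition has 1 pool.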
